A study of Mus musculus with 2 samples.

Results

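The apoptosis and TNF family genes are the genes of the cell death machinery and of tumor necrosis factor (TNF) signaling that the mouse array carried. They were chosen by the first words of their full names in the array files (caspase, Bcl2, BH3, programmed cell death, apoptosis, baculoviral, death, Fas, tumor necrosis factor, TNF receptor, nuclear factor of kappa and similar). The name rule itself uses no measured value, but the genes and lists were chosen with earlier results of these data known. There were 68 such gene spots of 8735 gene spots in all, each with a name of its own. Mcl1, Bcl3 and Bcl6 were not among them.

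The cytokine leukemia inhibitory factor (LIF) signals through JAK and STAT3, and the study examined what preimplantation embryos do without it. Morula stage embryos of B6CBF1 mice, aged 4 d per the labels, were compared after injection at the pronuclear stage with a small interfering RNA (siRNA) against LIF or with scrambled siRNA, the control, which carries no match to LIF. The labels give a dose of 1.0 fmol in 1 pl for the siRNA, while the methods and the supplement give other doses. RNA of LIF-siRNA-treated embryos was labeled with Cy5 and RNA of scrambled-siRNA-treated embryos with Cy3, on 2 arrays with the same dye order, so an effect of the dye and an effect of the siRNA cannot be told apart. A description among the labels speaks of untreated ES cells, unlike the titles and RNA sources, by which the arrays were assigned. Nothing in the labels says that the arrays held separate pools of embryos, so the spread between them may be technical. Whole embryos were used, and fewer cells of a type and less RNA per cell cannot be told apart.

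Cell death by apoptosis runs along an extrinsic route, in which ligands of the TNF family bind receptors and recruit adaptor proteins that activate initiator caspases, and an intrinsic route, in which members of the Bcl2 family decide on the integrity of the mitochondrial outer membrane. Both routes end in executioner caspases, which cleave proteins of the cell, and inhibitor of apoptosis proteins (IAPs) restrain caspases. TNF receptors also signal to survival through TRAF proteins and NF-kappaB. Apoptosis is a normal event of preimplantation embryos and is best known from the blastocyst.

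The ratio is Cy5 over Cy3, that is LIF-siRNA over scrambled siRNA, given as log2, so that 1 stands for a ratio of 2 and -1 for a ratio of 0.5. The methods call a gene up-expression or down-expression when its ratio is above 2 or below 0.5 and its signal is above 1000 in either channel, and these criteria were applied to the geometric mean of the ratios and the mean signal over both arrays. They hold no test. Among the apoptosis and TNF family genes, 30 passed the signal threshold, of which 2 were up-expression genes, Bid and Pdcd6ip, and 2 were down-expression genes, Daxx and Traf2. Of all 3527 gene spots past the signal threshold, 5.33% were up-expression and 5.42% were down-expression, so these counts lie near the background. On the log2 scale the mean ratio of Bid was 1.54 ± 0.21 (SD, n = 2), with 1.31 ± 0.15 for Pdcd6ip, -1.08 ± 0.05 for Daxx and -1.20 ± 0.61 for Traf2.

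**Figure D1:**
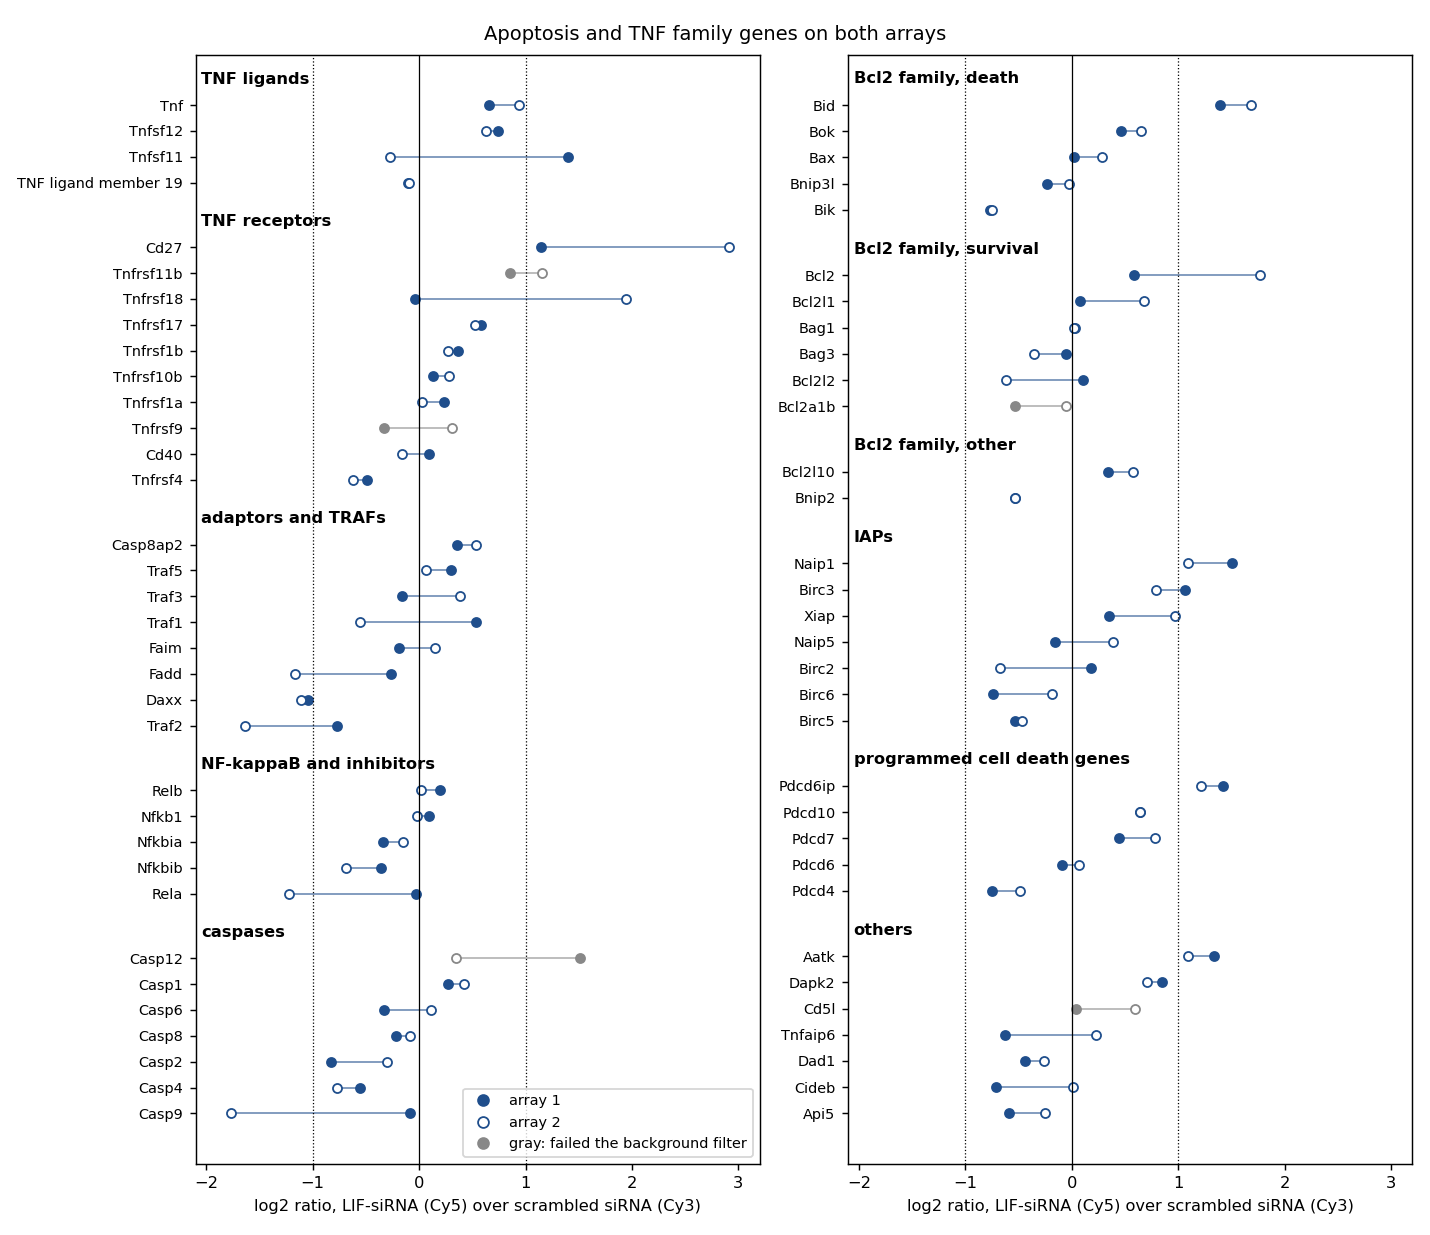
The log2 ratio of LIF-siRNA over scrambled siRNA (x axis) is plotted for 66 of the genes (y axis, by role), with array 1 as a filled point, array 2 as an open point and a line joining them. Dotted lines stand at ratios of 2 and 0.5, and the 5 genes in gray failed the background filter. Bid, Pdcd6ip, Naip1, Aatk and Cd27 lie to the right of the upper line on both arrays, and Daxx alone lies to the left of the lower line on both.

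The ratios were also tested with limma, an intercept-only fit across all gene spots with p-values adjusted by Benjamini-Hochberg and called under 0.05. Of the 68 genes, 63 were tested, which needed a signal well above background in 1 channel or both on each array. None was called, against 0 of 8079 gene spots (0%) over the whole table, where the lowest adjusted p was 0.0580. At an unadjusted p under 0.05 there were 22 of the 63 genes, which is 34.9%, beside 30.7% of all tested spots. The methods' t-test on the same ratios called 0 genes after adjustment and 7 before it, where 10.7% of all tested spots were called. The count of 0 depends on the processing, since 12 of the 63 genes were called with an intensity trend in limma, beside 13.8% of all spots, and 6 of the 30 genes past the signal threshold when those spots alone were tested, beside 18.7%.

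The genes as a group had a median close to that of all tested spots, and a difference of the group was not tested. Their median log2 ratio was 0.02, with the middle of the genes between -0.39 and 0.56 (first and last quartile). All tested spots had a median of -0.0040 and quartiles of -0.40 and 0.39, so the last quartile of the genes was higher. Of the 63 genes, 27 were higher in LIF-siRNA-treated embryos on both arrays (42.9%, beside 36.7% of all tested spots), 22 were lower on both (34.9%, beside 36.8%) and 14 had opposite signs. A mean log2 ratio above 1 with the same sign on both arrays was found for 6 of the tested genes, Bid, Pdcd6ip, Cd27, Naip1, Aatk and Bcl2 (9.52%, beside 6.93% of all tested spots). Of these, Naip1 and Aatk on both arrays and Cd27 on array 2 had a Cy3 signal below the 95th percentile of blank spots, and Naip1 was tested through its Cy5 signal alone, so their share of this count supports no difference from the other spots. With the normexp background correction and loess, Bid and Pdcd6ip alone had such a mean, 2 of the 63 genes beside 2.9% of all tested spots. That correction adds an offset of 50 to both channels, which by arithmetic draws the ratios of dim spots toward equality. The fall of dim genes there is therefore no independent check. A mean below -1 with the same sign on both was found for 2, Daxx and Traf2 (3.17%, beside 5.25%). Of these, Cd27, Naip1, Aatk and Bcl2 lay below the signal threshold.

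**Figure D2:**
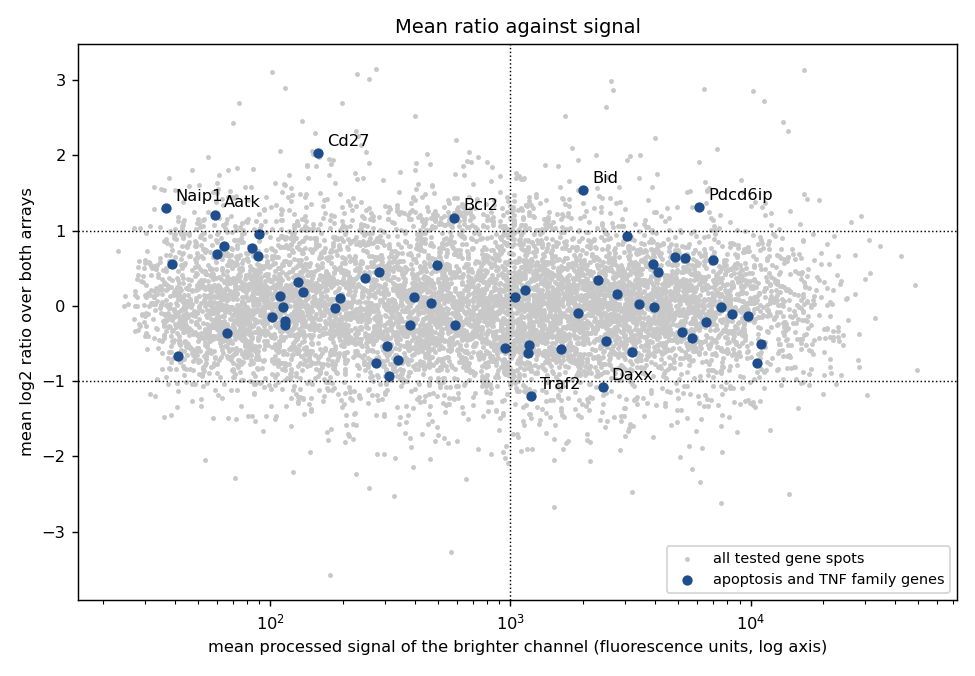
The mean log2 ratio over both arrays (y axis) is plotted against the mean processed signal of the brighter channel in fluorescence units (x axis, log scale), for all 8079 tested gene spots in gray and the 63 tested apoptosis and TNF family genes in blue. The dotted lines mark a signal of 1000 and ratios of 2 and 0.5, and only Bid, Pdcd6ip, Daxx and Traf2 among these genes lie beyond both thresholds.

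The stage and cell markers were read on the same arrays. All 10 spots of embryo markers were well above background in both channels, Pou5f1, the pluripotency factor Oct4, among them, with log2 ratios of -0.28 and 0.05. Their summed signal was 52762 to 78875 over the 4 channels, beside 377 to 840 for the 3 spots of the cumulus genes Ptx3 and Star and 3063 to 5386 for the 15 blood spots. Of the blood spots, 9 to 12 were well above background in each channel. F4/80 (named EGF-like module containing, mucin-like, hormone receptor-like sequence 1 in the files), the macrophage marker, was in none. The CD3 antigens epsilon, gamma and delta were well above background in every channel, with mean log2 ratios of 1.10, 0.26 and -0.40. Within the embryo list, the clones of transcripts of the cleavage stage had mean log2 ratios of 2.73 (L3), 2.89 (L5) and 2.08 (MuERV-L), while Sox2 had -2.35, keratin 8 -1.95 and Utf1 -0.95. The other markers of the list, eomesodermin, Zfp42 and cadherin 1, had 0.14, 0.35 and 0.47, so the list did not move one way. The cumulus gene Ptx3 had 1.17 and the spots of Star had 0.33 and -0.47, the latter not tested, and the blood spots ran from -1.29 to 1.10, the lowest being hemoglobin X, a down-expression gene whose signals of 1421 to 3979 made up much of the blood sum. The part of these markers in the ratios of the apoptosis and TNF family genes was not tested. No spot is named for LIF, so the knockdown could not be checked here.

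Among the ligands, Tnf, Tnfsf12, Tnfsf11 and a spot named TNF superfamily member 19 were measured. Tnf, the founding cytokine of the family, gave Cy5 signals of 53.5 (array 1) and 75.1 (array 2) and Cy3 signals of 34.0 and 39.2. This gave a log2 ratio of 0.66 and 0.94, higher on both arrays, with an adjusted p of 0.100 in limma. With normexp and loess the mean of Tnf was 0.28 (adjusted p = 0.256), and with normexp and median centring it was 0.24. The Cy3 signal of Tnf was below the 95th percentile of blank spots in that channel, which was 53.7 (array 1) and 67.9 (array 2). The same held on both arrays for 8 of the 63 tested genes in all, Aatk, Casp4, Dapk2, Naip1, Tnf, Tnfrsf18, Tnfsf11 and Tnfsf12, and on array 2 for Cd27, Cideb and Xiap, so the size of their ratios rests on a Cy3 signal within the range of blank spots.

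The spot of member 19 was the only ligand past the signal threshold. Its signals lay between 1779 and 1925 in all 4 channels, and the log2 ratio was -0.11 and -0.10, so the channels were close to equal. Tnfsf11, the ligand known as RANKL, had opposite signs, at 1.40 and -0.27, and was not well above background in Cy3 on either array. These ratios are no measured fold, since its Cy3 signals lay within the range of blank spots. Its Cy5 signals of 52.5 and 25.4 lay above the 95th percentile of blank Cy5 spots, 27.9 (array 1) and 22.5 (array 2). Tnfsf12, the ligand TWEAK, had a mean log2 ratio of 0.68.

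Of the 10 receptors, 8 were tested. Both arrays gave a higher level with LIF-siRNA for 5 of them and a lower level for 1, and 2 had opposite signs. Cd27, a receptor of lymphocytes that binds CD70, had the highest mean of the deposited log2 ratios among the 63 genes, 2.03 ± 1.25 (SD, n = 2). Its Cy5 signal was 136 and 179, and its Cy3 signal was 61.6 and 23.8, the latter not well above background. The log2 ratio was thus 1.14 and 2.92, both high but far apart, and the adjusted p in limma was 0.0833. With normexp and loess the mean of Cd27 was 0.83, below those of Bid and Pdcd6ip.

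Tnfrsf10b, the mouse receptor for the death ligand TRAIL, was the brightest receptor spot and the only one past the signal threshold. It had a Cy5 signal of 1168 and 1129 and a Cy3 signal of 1066 and 929, a log2 ratio of 0.13 and 0.28 and an adjusted p of 0.539. Tnfrsf4, the receptor OX40, was the only receptor lower on both arrays, with a Cy5 signal of 641 and 650, a Cy3 signal of 897 and 1003, and a log2 ratio of -0.49 and -0.62. Both TNF receptors themselves were dim and close to equal between the channels, with mean log2 ratios of 0.13 for Tnfrsf1a and 0.32 for Tnfrsf1b.

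Tnfrsf11b, the soluble decoy receptor osteoprotegerin, had a log2 ratio of 0.85 and 1.16 but was not tested. It was well above background in Cy5 on array 2 only, with a Cy5 signal of 28.3 and 35.0 and a Cy3 signal of 15.7 on both, and no fold is given for it. Its mean log2 ratio was 0.08 with normexp and loess and turned to -0.06 with normexp and median centring. Tnfrsf18, the receptor GITR, rested on array 2, with a log2 ratio of -0.04 against 1.95, where its Cy3 signal was not well above background.

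The adaptors held both down-expression genes. Daxx, which binds the death domain of Fas and is also a chaperone of histone H3.3, had Cy5 signals of 1107 (array 1) and 1187 (array 2) and Cy3 signals of 2279 and 2566. The log2 ratio was -1.04 and -1.11, below -1 on both arrays, the mean linear ratio was 0.474, and limma gave a 95% confidence interval of -1.61 to -0.54 and an adjusted p of 0.0704. The ratio lies close to the threshold, and with normexp the mean log2 ratio was -0.998 with loess, just short of it, and -0.97 with median centring.

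Traf2, the adaptor that links TNF receptors to NF-kappaB and JNK, gave Cy5 signals of 645 (array 1) and 428 (array 2) and Cy3 signals of 1102 and 1328. Its log2 ratio was -0.77 and -1.63, lower on both arrays but past the threshold on array 2 only, so that Traf2 was not a down-expression gene on array 1 alone. The mean linear ratio was 0.434, with a confidence interval of -1.95 to -0.46 on the log2 scale and an adjusted p of 0.0876. With normexp and median centring the mean was -0.99, and neither Traf2 nor Daxx then passed, which left 2 up-expression and 0 down-expression genes.

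The gene for the adaptor Fadd, which couples death receptors to caspase 8, was also lower on both arrays, at -0.26 and -1.17, and was below the signal threshold. Casp8ap2, the protein known as FLASH that binds caspase 8, was the brightest adaptor spot, with a Cy5 signal of 4155 and 4089, a Cy3 signal of 3237 and 2822 and a log2 ratio of 0.36 and 0.53. Faim, a Fas inhibitory protein, had a log2 ratio of -0.19 and 0.15. The other TRAF genes were between -0.01 (Traf1) and 0.18 (Traf5) in mean log2 ratio, and Traf1 and Traf3 had opposite signs on the arrays. In all, 2 adaptor genes had positive ratios on both arrays, 3 had negative ratios on both and 3 had opposite signs.

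Among the NF-kappaB genes and their inhibitors, 1 of 5 was higher with LIF-siRNA on each array and 3 were lower. Rela, the p65 subunit that activates transcription, had Cy5 signals of 1017 (array 1) and 566 (array 2) and Cy3 signals of 1038 and 1320. This gave a log2 ratio of -0.03 and -1.22, so array 1 was near equal and the mean of -0.63 came from array 2. Nfkbib, an inhibitor that holds NF-kappaB in the cytoplasm, had a Cy5 signal of 896 and 766, a Cy3 signal of 1150 and 1238 and a log2 ratio of -0.36 and -0.69. The adjusted p in limma was 0.283 for Rela and 0.188 for Nfkbib. Relb, Nfkb1 and Nfkbia had mean log2 ratios between -0.25 and 0.10.

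**Figure D3:**
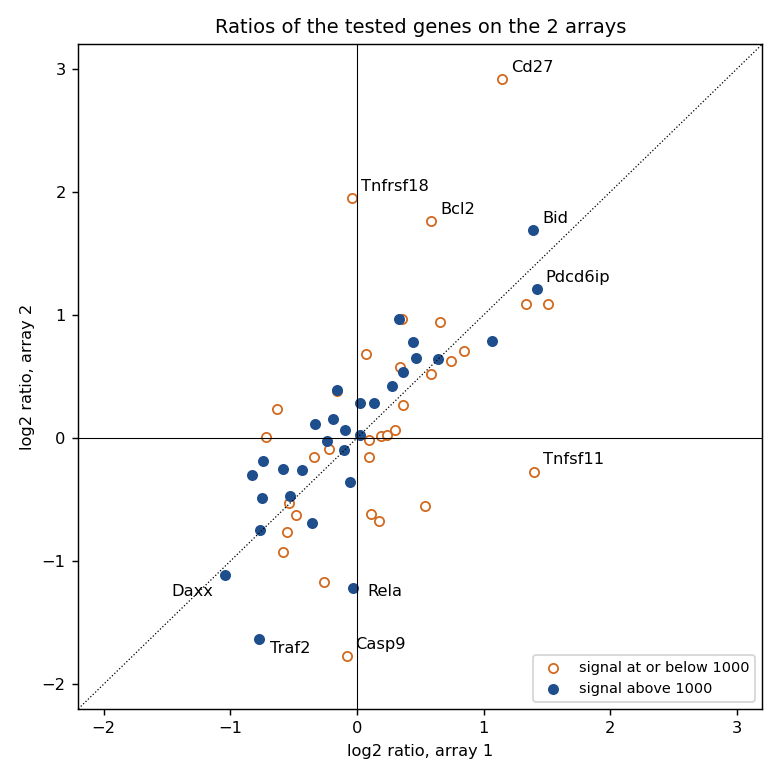
The log2 ratio on array 1 (x axis) is plotted against that on array 2 (y axis) for the 63 tested genes, with genes past the signal threshold of 1000 filled and the others open, and the dotted line marks equal ratios. Bid, Pdcd6ip and Daxx lie near that line, while Cd27, Tnfrsf18, Bcl2, Casp9, Rela and Tnfsf11 lie far from it.

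The sign and order of the ratios differed less between the arrays for the brighter genes. For the 30 genes past the signal threshold, 26 had the same sign on both arrays (86.7%), beside 78.8% of all spots past it, and Pearson r between the arrays was 0.840 across genes, beside 0.758 for all such spots. For the 33 tested genes below the threshold, 69.7% had the same sign, beside 69.3% of all such spots, and r was 0.537, beside 0.565. Genes are not independent replicates and both arrays shared a dye order, so these correlations are descriptions. The median SD between the arrays hardly differed, at 0.19 past the threshold and 0.20 below it, beside 0.19 and 0.31 over all such spots.

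Of the 9 caspases, 8 were tested, and the ratio was positive on both arrays for 2, negative on both for 5 and of opposite signs for 1. Over all tested spots, 36.7% were positive on both and 36.8% negative on both. Casp4 counts among the 5, though it was tested through its Cy3 signal alone, the channel in which it was higher. The tested caspases had a median log2 ratio of -0.36, beside -0.15 over all 9 spots. None of the caspases passed the criteria. Casp6, an executioner caspase, was the brightest caspase spot, with a Cy5 signal of 6565 and 9114, a Cy3 signal of 8253 and 8442 and a log2 ratio of -0.33 and 0.11.

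Of the initiators, Casp8 of the death receptor route was near equal at -0.22 and -0.09. Casp2 had -0.83 and -0.30. Casp9, which the apoptosome activates, had -0.08 and -1.77, so its mean of -0.93 rested on array 2.

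Casp1, which processes interleukin 1 beta, had a mean log2 ratio of 0.35. The spot named caspase 11, the gene Casp4, another inflammatory caspase, was not well above background in Cy5 on either array, and its Cy3 signals of 35.2 and 47.6 lay within the range of blank spots, so its ratio is no measured fold. Casp12 was well above background only in Cy5 of array 1 and was not tested.

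The Bcl2 family genes that promote death held the up-expression gene Bid. Bid is a BH3-only protein that caspase 8 cleaves, and its truncated form carries the death receptor signal to mitochondria. Its Cy5 signal was 2089 (array 1) and 1925 (array 2) and its Cy3 signal was 798 and 598. The log2 ratio was 1.39 and 1.69, above 1 on both arrays, which is a mean linear ratio of 2.90. Limma gave a 95% confidence interval of 0.97 to 2.10 and an adjusted p of 0.0592, the lowest of the 63 genes, and with normexp and loess the log2 ratio was 1.43 with an adjusted p of 0.0490.

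None of the other 4 genes of this role passed the criteria. Bik, a BH3-only protein of the endoplasmic reticulum, had a Cy5 signal of 6111 and 6478 and a Cy3 signal of 10396 and 10859. The log2 ratio of -0.77 and -0.75 was nearly the same on both arrays, with a confidence interval of -1.29 to -0.22 and an adjusted p of 0.101. Bnip3l, a mitochondrial receptor for autophagy, had a Cy5 signal of 8480 and 9358, a Cy3 signal of 9990 and 9508 and a log2 ratio of -0.24 and -0.02. The pore-forming relatives Bok and Bax were higher on both arrays, with mean log2 ratios of 0.56 and 0.15. Thus 3 of these 5 genes had positive ratios on both arrays and 2 negative ratios, and all 5 passed the signal threshold.

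Of the 6 Bcl2 family genes that promote survival, 5 were tested, of which 3 had positive ratios on both arrays, 1 had negative ratios and 1, Bcl2l2, had opposite signs. Bcl2 itself, the founding survival protein, had Cy5 signals of 478 (array 1) and 689 (array 2) and Cy3 signals of 319 and 203. In log2 the ratio was 0.59 and 1.76, higher on both but past a ratio of 2 on array 2 only, with an adjusted p of 0.106. It was below the signal threshold and therefore not an up-expression gene by the criteria. Bcl2l1, which encodes Bcl-xL, had 0.07 and 0.68.

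The bright spots of this role were the cochaperones Bag1 and Bag3, which bind Hsp70. Bag1 had a Cy5 signal of 3194 and 3640, a Cy3 signal of 3137 and 3588 and a log2 ratio of 0.03 and 0.02, equal between the channels on both arrays. Bag3 had a Cy5 signal of 5896 and 5422, a Cy3 signal of 6138 and 6951 and a log2 ratio of -0.06 and -0.36. Bcl2a1b was not well above background in any channel. Of the genes not placed in either role, Bcl2l10 had signals of 184 to 294 and a log2 ratio of 0.34 and 0.57. Bnip2 had signals of 199 to 324 and a log2 ratio of -0.54 and -0.53.

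**Figure D4:**
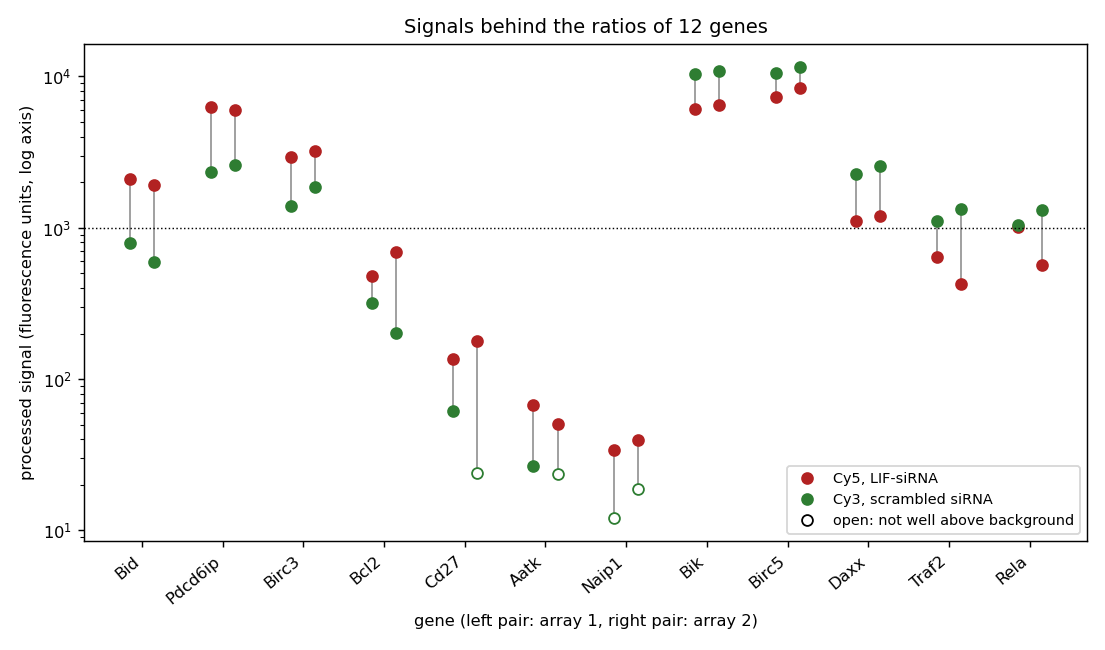
The processed signal (y axis, fluorescence units, log scale) of LIF-siRNA (Cy5, red) and scrambled siRNA (Cy3, green) is plotted for 12 genes (x axis), with array 1 as the left pair and array 2 as the right pair of each gene. The dotted line marks 1000, open points were not well above background, and the low Cy3 signals of Cd27, Aatk and Naip1 lie under 100 while those of Bid lie at 798 and 598.

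The 7 IAP genes comprised 3 with positive ratios on both arrays, 2 with negative ratios and 2 with opposite signs. Birc3, the protein cIAP2 of the TNF receptor complex, had Cy5 signals of 2938 (array 1) and 3204 (array 2) and Cy3 signals of 1402 and 1851. This gave a log2 ratio of 1.07 and 0.79, a mean of 0.93 that lay just under the threshold, and the adjusted p was 0.0861. On array 1 alone Birc3 passed the up-expression criteria. Birc5, survivin, which also serves the chromosomal passenger complex in mitosis, was the brightest IAP spot, with a Cy5 signal of 7280 and 8386, a Cy3 signal of 10531 and 11620 and a log2 ratio of -0.53 and -0.47 (adjusted p = 0.183).

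Naip1, a sensor of bacterial proteins with IAP repeats, had a deposited log2 ratio of 1.51 and 1.09 from a Cy5 signal of 34.1 and 39.6 and a Cy3 signal of 11.99 and 18.6. The Cy3 signal was not well above background on either array and lay below the 95th percentile of blank Cy3 spots. The Cy5 signal lay above that of blank Cy5 spots, which was 27.9 (array 1) and 22.5 (array 2). Since Naip1 passed the filter through Cy5 alone, the channel in which it was higher, its ratio is a description and not a measured fold. With normexp and loess the log2 ratio was 0.58. Naip1 and Naip5 come from a family of near-identical genes whose fragments may share signal on an array, and Naip5 had -0.16 and 0.38. Xiap, which binds caspases directly, was higher on both arrays at 0.35 and 0.97, at signals of 43.7 to 91.4, and Birc2 had opposite signs. Birc6 had -0.74 and -0.18.

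The genes named for programmed cell death held the other up-expression gene, Pdcd6ip, the protein Alix, which works with the ESCRT machinery in membrane scission and binds Pdcd6. Its Cy5 signal was 6234 (array 1) and 5991 (array 2) and its Cy3 signal was 2333 and 2591. The log2 ratio was 1.42 and 1.21, above 1 on both arrays, with a mean linear ratio of 2.49, a confidence interval of 0.76 to 1.86 and an adjusted p of 0.0607. Pdcd6, its calcium-binding partner ALG-2, was equal between the channels, with a Cy5 signal of 7154 and 7769, a Cy3 signal of 7634 and 7423 and a log2 ratio of -0.09 and 0.07.

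All 5 genes of this role passed the signal threshold. Pdcd7, a component of the minor spliceosome, had a Cy5 signal of 7415 and 6549, a Cy3 signal of 5465 and 3814 and a log2 ratio of 0.44 and 0.78. Pdcd10, a protein of the cerebral cavernous malformation complex, had 0.64 on both arrays. Pdcd4, an inhibitor of translation initiation, was the only one lower on both, at -0.75 and -0.49. An unadjusted p under 0.05 was found for 4 of the 5, where 30.7% of all tested spots had one, and the adjusted p of Pdcd7, Pdcd10 and Pdcd4 lay between 0.122 and 0.148.

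Of the remaining 7 genes, 6 were tested, 2 with positive ratios on both arrays, 2 with negative ratios and 2 with opposite signs. Aatk, an apoptosis-associated kinase best known from neurons, had a log2 ratio of 1.33 and 1.09 from a Cy5 signal of 67.3 and 50.4 and a Cy3 signal of 26.7 and 23.7, which was well above background on array 1 only. Its adjusted p was 0.0640, and the mean was 0.29 with normexp and loess. Api5, an inhibitor of apoptosis, had a Cy5 signal of 3834 and 4768, a Cy3 signal of 5762 and 5691 and a log2 ratio of -0.59 and -0.26.

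Dad1, a subunit of the oligosaccharyltransferase, had a Cy5 signal of 3809 and 4325, a Cy3 signal of 5154 and 5177 and a log2 ratio of -0.44 and -0.26. Dapk2, a death-associated kinase, had a mean of 0.78 at signals of 48.1 to 89.8. Tnfaip6, a matrix protein that is also a marker of cumulus cells, had opposite signs at -0.63 and 0.23. Cd5l and the receptor Tnfrsf9 were not well above background in any channel.

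Of the related genes that the name rule did not take (p53 and Mdm2, Mcl1, granzymes, kinases of NF-kappaB, Akt, growth arrest genes, cathepsins, DNases and others), 32 spots were found and 29 tested. Both arrays gave positive ratios for 8 and negative ratios for 11, and 10 had opposite signs, with a median log2 ratio of -0.13. None was called by limma. The only one past the criteria was ectodysplasin-A, a ligand of the TNF superfamily that acts in skin appendages, with a Cy5 signal of 2704 (array 1) and 1981 (array 2) and a Cy3 signal of 1128 and 628. The log2 ratio was 1.26 and 1.66 (adjusted p = 0.0607).

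Since LIF acts through STAT3, the promoters of these genes were searched for the STAT motif TTCNNNGAA, which reads the same on both strands, in the 250 bases before each start listed by RefSeq (build GRCm38.p6). Promoters were found for 56 of the 68 genes, 70 in all. The motif was in 10 of the 70 (14.3%), one promoter each for 10 genes, beside 7.02% of all 32851 listed promoters. The kappaB motif was in 9 (12.9%), of 8 genes, beside 7.25% of all. The 70 promoters had a median GC content of 57.8% and 12 CG pairs, beside 52.4% and 6 over all promoters, and these shares were not matched for it. A match is a description of letters and not a bound site. Bid, Pdcd6ip, Daxx and Traf2 had neither motif in any listed promoter. Other listed promoters of Aatk and of Pdcd4 had no STAT motif. The deposited mean log2 ratio of Aatk was above 1, at Cy3 signals within the range of blank spots, and was 0.29 with normexp and loess. The STAT matches of Aatk, and of Pdcd7, Pdcd10 and Pdcd4, whose spots passed the signal threshold, are shown with the motif in capitals, 5′ to 3′ on the strand of the gene.
Aatk, chr11:120017349-120017377, minus strand: gggagcagaaTTCAGAGAAtccgaggggg
Pdcd7, chr9:65346018-65346046, plus strand: tacgcctcgcTTCCGGGAAgtgagtcaag
Pdcd10, chr3:75556917-75556945, minus strand: tcgcacagccTTCTGGGAAatgtagtctt
Pdcd4, chr19:53892150-53892178, plus strand: ctttgctgttTTCCCAGAAaagggctctg
These motifs began 213, 40, 83 and 71 bases before the start. Their genes had mean log2 ratios of 1.21 for Aatk, 0.61 for Pdcd7, 0.64 for Pdcd10 and -0.62 for Pdcd4, so genes with the motif were found with ratios in both directions. The genes past the criteria lie in GRCm38.p6 on chromosome 6 from 120893119 to 120917062 (Bid), chromosome 9 from 113651744 to 113708279 (Pdcd6ip), chromosome 17 from 33909404 to 33915590 (Daxx) and chromosome 2 from 25517982 to 25546940 (Traf2), all protein coding.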

How the data were processed

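Total RNA of morulae was hybridized to 2 two-color arrays of cDNA fragments. The deposited files are scanner tables written by Agilent Feature Extraction (A.7.5.1 in the file headers, while the methods name another version). The deposited intensity columns hold the mean and local background brightness and the dye-normalized processed signal, and the deposited log ratio, on a log10 scale with Cy5 as the numerator, had passed a rank-consistent lowess. The deposited p-value of a single spot was not used. The deposited log2 table of the series followed the average brightness of both channels (r = 0.998 on both arrays, column medians 8.83 and 8.93) and not the ratio (r = 0.0121 and 0.0114), so no alternative came from it.

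Ratios were put on the log2 scale. Controls were left out, as were 23 gene spots with an outlier mark, none of them an apoptosis or TNF family gene. No gene spot was saturated, and the median signal over background was 4.83 to 6.60 per channel. The ratios were tested with limma 3.58.1 (lmFit and eBayes, two-sided) in R 4.3.3, checked on simulated data, and summarized with Python 3.11.15, pandas 2.3.3 and numpy 2.4.6. The number of arrays limits the precision. Symbols were assigned from the full names, and 67 of 68 were found in the RefSeq table.

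The genes and lists were chosen with earlier results of these data known, although the name rule itself uses no measured value. Named with full values were genes past the criteria, genes with a mean log2 ratio above 1 or below -1 and the same sign on both arrays, and the 2 brightest spots of each role. Tnfsf11, Tnfsf12, Tnfrsf1a, Tnfrsf1b, Tnfrsf18, Tnfrsf9, Fadd, Traf1, Traf3, Traf5, Relb, Nfkb1, Nfkbia, Casp1, Casp2, Casp4, Casp8, Casp9, Casp12, Bok, Bax, Bcl2l1, Bcl2l2, Bcl2a1b, Naip5, Xiap, Birc2, Birc6, Pdcd4, Pdcd10, Dapk2, Tnfaip6, Cideb and Cd5l joined them once values were known. Some genes are not reported here by name. As alternatives, background was corrected by normexp (offset 50) with loess or median centring, and the others were centred ratios, other filters on dim spots and signal, outliers kept, an intensity trend, the methods' t-test and each array left out.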

Additional observations from a re-analysis of the deposited data

How the results depend on the processing

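The up-expression count of 2 genes was 7 without the signal threshold (571 of all gene spots) and 6 with spots well above background in its place (562), beside 188 of all by the criteria, and 2 to 3 with an array left out (176 to 260 of all). The down-expression count of 2 was 1 with normexp and loess (163 of all gene spots), 0 with normexp and median centring (145), 1 with the ratio past its threshold on both arrays (133), beside 191 of all by the criteria, and 1 to 3 with an array left out (215 to 266 of all), where Traf2 was lost without array 2 and Rela was added without array 1. Limma called 2 of 63 genes with normexp and loess (Bid and Pdcd6ip), 12 with normexp and median centring, 3 with the ratios centred, 12 with an intensity trend, 2 of the 56 well above background in both channels on both arrays and 6 of the 30 past the signal threshold. It called 0 without the filter on dim spots and with outliers kept. Why these counts differ was not tested. In the whole table limma called 0, and 158, 1690, 345, 1118, 234 and 660 of the tested spots under those same settings in turn. Of the 30 genes past the signal threshold 26 had the same sign on both arrays, beside 49 of 63. The median log2 ratio of the genes stayed between -0.06 and 0.07, and it was -0.02 among genes well above background in both channels and -0.06 among those past the signal threshold. Directions turned for Tnfrsf11b (-0.061), Faim (0.028) and Pdcd6 (0.068) with normexp and median centring. With an array left out, Faim ranged from -0.19 to 0.15, Casp6 from -0.33 to 0.11 and Pdcd6 from -0.094 to 0.066, each above 0 without array 1. Of the 31 genes named by rule, the others kept their direction under the 3 other normalizations and with either array left out. Genes named besides these, such as Tnfsf11, Tnfrsf18, Traf1 and Birc2, were not followed through the normalizations, and those with opposite signs on the arrays turn with an array left out. Genes with dim Cy3 spots had smaller ratios with normexp and loess, as given for Cd27, Naip1, Aatk, Tnf and Tnfrsf11b. The offset of 50 by itself makes the ratios of dim spots smaller. With an array left out no test was possible, since no residual degrees of freedom remain. No paired analysis was possible because the arrays form a single group, in which each ratio already pairs both RNAs.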
